A study of Rattus norvegicus with 27 samples.

Results

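Potassium channel genes are described here as a group in the hippocampus of rats after global brain ischemia and of sham-operated rats. The members are genes whose array probe set carries a single symbol of the Kcn family in the platform annotation. They were selected on measured values in 1 respect, a mean log2(intensity + 16) over all 27 arrays of 5.39 or more, and the rule itself uses no contrast between groups, although earlier results of these data were known when it was set. Of 87 Kcn genes with such a probe set, 72 reached the threshold, as did 12716 genes of the array in all. Just inside it lay Kcnj15 at 5.41, and just outside it lay Kcnmb2 at 5.34.

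Potassium channels let potassium leave the cell, and in doing so they set the resting potential, end action potentials and space them. Voltage-gated (Kv) pore subunits open on depolarisation and are modified by auxiliary subunits. Inward rectifiers hold the membrane near rest and include G protein-gated (GIRK) and ATP-sensitive channels, two-pore-domain channels carry leak current, and calcium- and sodium-activated channels follow the spike. In CA1 pyramidal cells A-type Kv channels in the dendrites limit back-propagating spikes, and ATP-sensitive channels open when cellular energy falls, as it does in ischemia.

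The members comprised 30 of 35 Kv pore subunits, 10 of 12 Kv auxiliary subunits, 12 of 15 inward rectifiers, 12 of 13 two-pore-domain channels, and 8 of 11 calcium- and sodium-activated channels with their auxiliary subunits. The Kv pore subunits were Kcna1, Kcna2, Kcna3, Kcna4, Kcna5, Kcna6, Kcna7, Kcna10, Kcnb2, Kcnc1, Kcnc2, Kcnd2, Kcnd3, Kcnf1, Kcng1, Kcng2, Kcng3, Kcng4, Kcnh1, Kcnh2, Kcnh3, Kcnh4, Kcnh6, Kcnh7, Kcnh8, Kcnq3, Kcnq5, Kcns2, Kcns3 and Kcnv1. The Kv auxiliary subunits were Kcnab1, Kcnab2, Kcnab3, Kcne1, Kcne2, Kcne5, Kcnip1, Kcnip2, Kcnip3 and Kcnip4. The inward rectifiers were Kcnj2, Kcnj3, Kcnj4, Kcnj5, Kcnj6, Kcnj8, Kcnj9, Kcnj10, Kcnj11, Kcnj12, Kcnj14 and Kcnj15. The two-pore-domain channels were Kcnk1, Kcnk2, Kcnk3, Kcnk4, Kcnk5, Kcnk6, Kcnk7, Kcnk9, Kcnk12, Kcnk15, Kcnk16 and Kcnk18. The activated channels were Kcnma1, Kcnmb1, Kcnmb4, Kcnn1, Kcnn3, Kcnn4, Kcnt1 and Kcnt2. The 15 genes below the threshold were Kcnd1, Kcne3, Kcne4, Kcnh5, Kcnj1, Kcnj13, Kcnj16, Kcnk10, Kcnmb2, Kcnmb3, Kcnq1, Kcnrg, Kcns1, Kcnu1 and Kcnv2.

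All rats were male Long Evans rats. In the group called 8R, both carotid arteries were closed under lowered blood pressure for 10 min at normal body temperature, and the brain was then reperfused for 8 h. The control group, called NIC, was sham-operated without ischemia. The hippocampal fields CA1 and CA3 were dissected, and tissue of 5 rats was pooled for each replicate, so that the spread between replicates is a spread between pools. A supernatant freed of mitochondria gave total RNA from one portion and, from the rest, RNA of the pellet under a sucrose pad, called polysome RNA. There were 4 pools for 8R CA1 total, 8R CA3 total and 8R CA3 polysome RNA, and 3 pools for 8R CA1 polysome RNA (numbered 1, 3 and 4) and for each of the 4 NIC groups. Each pool and fraction was hybridised to 1 Affymetrix Rat Gene 2.0 array.

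The values are probe set intensities on a linear scale in arbitrary units, and the number of arrays limits their precision. Differences and standard errors (SE) are on the scale of log2(intensity + 16), which understates the change of dim genes, and a gene was called at a Benjamini-Hochberg adjusted p under 0.05 over all 12716 genes in limma. Median intensities per array lay between 27.1 and 38.1 in the 8R groups and between 25.6 and 34.5 in the NIC groups, and the NIC CA3 polysome arrays were the dimmest at 25.6 to 27.3. The median SD of the members within a group was 0.15 to 0.206 (log2) in the 8R groups and 0.1 to 0.128 in the NIC groups. The regional markers separated the fields unevenly. The summed intensity of 5 CA1 pyramidal markers was 1189 to 1357 in NIC CA1 total RNA and 530 to 630.1 in NIC CA3 total RNA. That of 6 CA3 pyramidal markers was 580.1 to 609 in NIC CA1 and 668 to 690.1 in NIC CA3. That of 5 dentate granule markers was 275 to 379.6 in NIC CA1 and 224 to 241 in NIC CA3. How cleanly the fields were dissected was not tested. The tissue also held glia, with 9 oligodendrocyte markers summing to 3210.2 to 3836 in NIC CA1 total RNA and 1926 to 2291 in NIC CA3 total RNA. In tissue RNA, fewer cells of a type and less RNA per cell cannot be told apart.

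The first question was what 8 h of reperfusion after ischemia did to these genes in each region and RNA fraction. In at least 1 of the 4 comparisons of 8R with NIC, 18 of 72 members were called, beside 33.6% of all genes. Of the members 8 were higher and 10 lower, beside 24.8% and 8.89% of all genes. As deposited, Kcnj9 was the 1 member called in both CA1 fractions (4.9% of all genes), and none was called in both CA1 and CA3 (13.1%). A replicate block on the pool number links all arrays of 1 number within a condition, over fractions and regions. With it, Kcnab2, Kcnj3 and Kcnd3 were also called in both CA1 fractions (5.7% of all genes), and still none in both regions (14.2%). After quantile normalization of the arrays those called in both CA1 fractions were Kcnab2, Kcnip3, Kcnj3 and Kcnq5, without Kcnj9 (6.12% of all genes), and Kcnh3, Kcnip2 and Kcnj3 were called lower in both CA1 and CA3 (11%). As deposited, Kcnk1 alone of the two-pore-domain channels was called. None of the 8 calcium- and sodium-activated channels was called as deposited, and their differences lay between -0.32 and 0.3 over the 4 comparisons. After quantile normalization Kcnk2, Kcnk4, Kcnk16 and the calcium-activated channel Kcnn4 were called lower in CA1 total RNA. With the replicate block Kcnk12 was called higher in CA1 polysome RNA and Kcnk3 higher in CA3 polysome RNA. Families were not tested against each other.

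**Figure D1:**
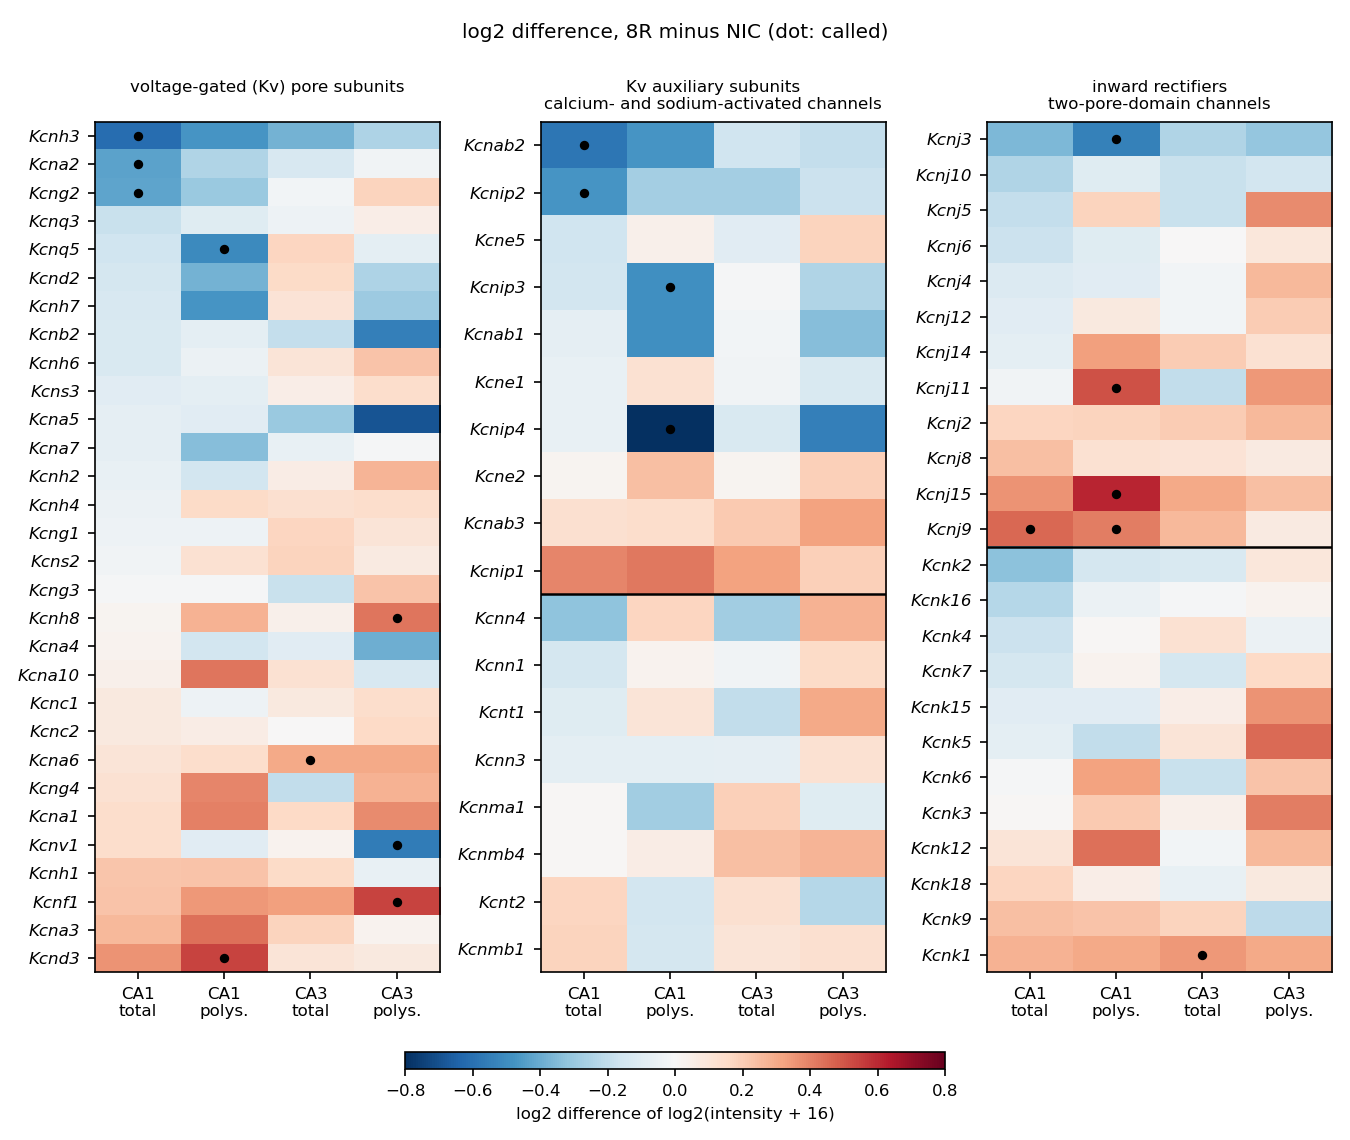
Each cell is the log2 difference of 1 potassium channel gene, 8R minus NIC, in CA1 total, CA1 polysome, CA3 total and CA3 polysome RNA (columns), with red higher and blue lower in 8R, families split by black lines, and a dot on each called difference. Dots stand on 6, 8, 2 and 3 of the 72 genes in the 4 columns.

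In CA1 total RNA, 5 members fell and 1 rose after ischemia and reperfusion. The 5 that fell were the Kv pore subunits Kcnh3, Kcna2 and Kcng2 and the auxiliary subunits Kcnab2 and Kcnip2, and the one that rose was the GIRK subunit Kcnj9. The count of 6 of 72 stands beside 26.3% of all genes called in this comparison. By direction, 20.1% of all genes were called higher and 6.15% lower. The median difference was -0.06 over the members and 0.04 over all genes tested.

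Kcnab2, a cytosolic subunit of Kv1 channels that aids their surface and axonal targeting, had intensities of 739, 776, 1031 and 643 in 8R CA1 total RNA, against 1135, 1221 and 1199 in NIC. Every 8R pool lay below every NIC pool, and pool 3 of 8R came nearest. The difference was -0.58 (SE 0.14, 1.5-fold lower, adjusted p = 0.00242). Kcnip2, a calcium-binding subunit of A-type Kv4 channels, had 382, 357, 479.5 and 448 in 8R, against 569, 543 and 624 in NIC. Its groups were again apart, with a difference of -0.47 (SE 0.11, 1.38-fold lower, adjusted p = 0.00168).

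Kcng2, an electrically silent subunit that modifies Kv2 channels, had 65.4, 83.6, 91.7 and 70.5 in 8R CA1 total RNA, against 99.6, 106 and 122 in NIC. The groups did not overlap, and the difference was -0.42 (SE 0.1, adjusted p = 0.00295). Kcnh3, a channel of the ether-a-go-go-like group that is open below spike threshold, had 108, 98.4, 185 and 108 in 8R, against 194, 191 and 194 in NIC. Pool 3 of 8R stood far above the other 8R pools and just under the NIC pools, and the difference was -0.61 (SE 0.18, adjusted p = 0.0137). Kcna2, a Kv1 subunit of axons, had 151, 112, 189 and 168 in 8R, against 232, 177 and 231 in NIC. Here the groups overlapped, and the difference was -0.43 (SE 0.15, adjusted p = 0.0304).

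Kcnj9, a GIRK subunit that inhibitory receptors open through G proteins, had 69.1, 59.6, 71.5 and 79.2 in 8R CA1 total RNA, against 58.3, 39.4 and 42.4 in NIC. The lowest 8R pool lay just above the highest NIC pool, and the difference was 0.46 (SE 0.12, 1.38-fold higher, adjusted p = 0.00396). In CA1 polysome RNA the gene had 70.5, 71.9 and 97.7 in 8R, against 67.7, 46.5 and 53.9 in NIC, a difference of 0.41 (SE 0.13, adjusted p = 0.0371). That second call held under 8 of 17 other settings, and it was lost without the array of 8R pool 4 (adjusted p = 0.259), NIC pool 2 (0.19) or NIC pool 3 (0.109). In CA3 it had a mean of 54.6 ± 6.09 in 8R total RNA and 42.9 ± 1.04 in NIC total RNA (SD, n = 4 and 3), and the difference of 0.26 did not pass the test (adjusted p = 0.146).

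**Figure D2:**
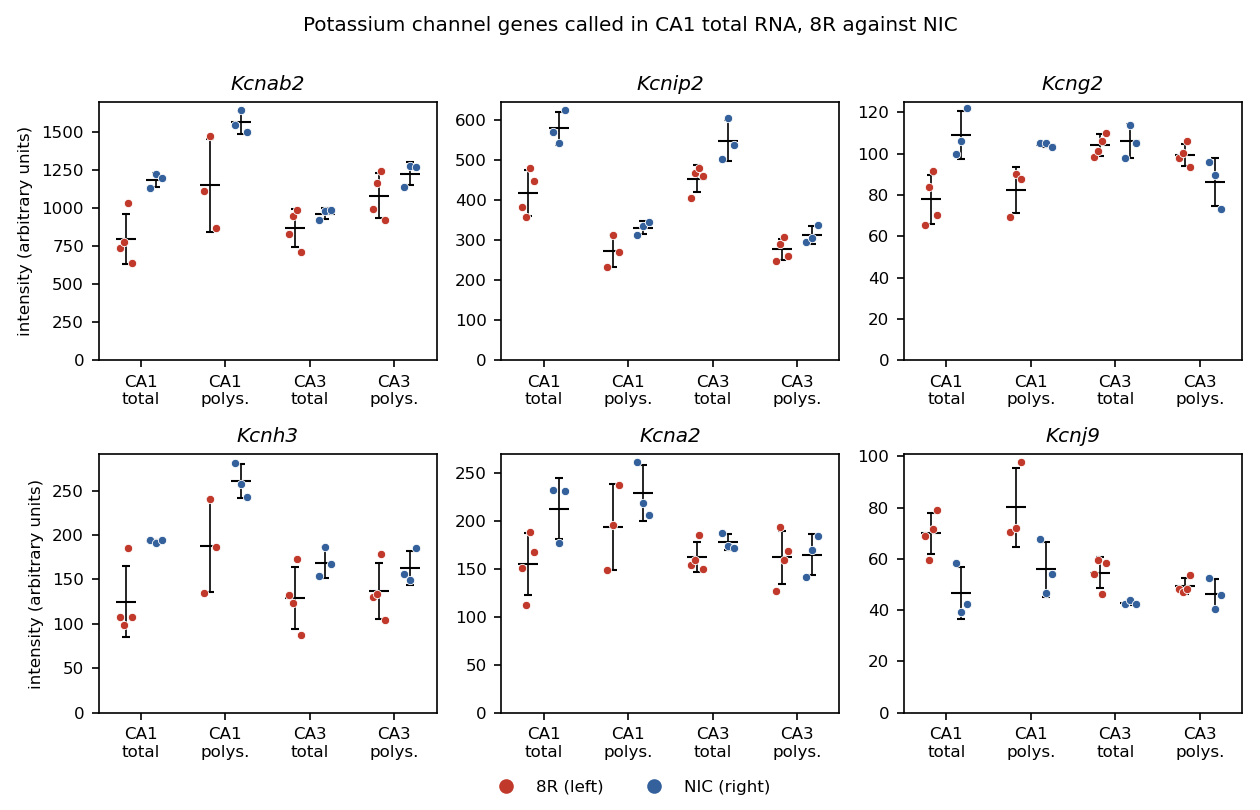
Points are the intensities of single arrays (8R red, left, and NIC blue, right, of each pair) for the 6 genes called in CA1 total RNA, in the 4 combinations of region and RNA fraction, with bars at the mean and its SD. In CA1 total RNA, 8R pool 3 is the top 8R point of the 5 genes that fell, and Kcna2 is the gene whose 8R and NIC points overlap.

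For the genes that fell in CA1 total RNA, pool 3 gave the highest 8R value in 5 of 5, and the same pool was the highest 8R value of 4 of the 4 genes that fell in CA1 polysome RNA. The summed intensity of the 5 CA1 pyramidal markers in 8R CA1 total RNA was 876, 905, 1486 and 851 in pools 1 to 4, against 1189, 1357 and 1340.4 in NIC. Pool 3 was thus the 1 pool of 8R at or above the level of NIC. Of these markers 3 of 5 tested were called lower, of 5 neuron markers 3 were lower, of 9 astrocyte markers 4 were higher and of 7 microglia markers 3 were higher. The 9 astrocyte markers summed to 4719 to 5444 in 8R and 3666 to 3859 in NIC, and the 9 microglia markers measured to 468 to 541 in 8R and 389.7 to 419.8 in NIC. The part of these shifts in the result was not tested. Without the pool 3 array of 8R, the total RNA of CA1 gave 8 called members and its polysome RNA 16. The share of all genes called without single arrays is not given in this report. Counts without an array, here and below, are thus no result particular to these genes.

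Kcnab2, Kcnip2, Kcng2 and Kcnj9 were called in CA1 total RNA under all 18 other settings tried. Kcna2 was lost without 8R pool 1 (adjusted p = 0.0624), 8R pool 2 (0.138), NIC pool 1 (0.123) or NIC pool 3 (0.123), and Kcnh3 without 8R pool 2 (0.0513). After quantile normalization of the arrays, 15 members were called, 1 higher and 14 lower, beside 29.6% of all genes in either direction. The 6 genes above were among them. The other 9 were all lower, among them Kcnj3 (-0.52 after and -0.36 before normalization), the stretch-sensitive leak channel Kcnk2 (-0.44 and -0.33) and the astrocyte rectifier Kcnj10 (-0.39 and -0.24). For quantile normalization, the shares of all genes called higher and lower are not given in this report, here or in later comparisons. The split of the members by direction on that scale is thus no result particular to them.

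The promoters of the 4 genes with the steadiest calls in CA1 total RNA are shown because these members moved together or, for Kcnj9, against the rest. The windows run from 250 bases before to 50 bases after the annotated start, as given by RefSeq on build GRCr8, each on the minus strand at chr13:87320244-87320543 for Kcnj9, chr18:76083639-76083938 for Kcng2, chr1:254613849-254614148 for Kcnip2 and chr5:168270711-168271010 for Kcnab2. Capitals mark the GC box GGGCGG on either strand, the only one of 5 motifs searched that was found in them.
Kcnj9: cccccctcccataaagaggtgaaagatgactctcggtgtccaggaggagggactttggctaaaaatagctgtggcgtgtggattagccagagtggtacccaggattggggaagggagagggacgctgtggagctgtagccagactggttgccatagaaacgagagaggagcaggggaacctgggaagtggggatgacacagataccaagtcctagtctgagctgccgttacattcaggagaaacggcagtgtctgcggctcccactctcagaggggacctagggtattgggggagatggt
Kcng2: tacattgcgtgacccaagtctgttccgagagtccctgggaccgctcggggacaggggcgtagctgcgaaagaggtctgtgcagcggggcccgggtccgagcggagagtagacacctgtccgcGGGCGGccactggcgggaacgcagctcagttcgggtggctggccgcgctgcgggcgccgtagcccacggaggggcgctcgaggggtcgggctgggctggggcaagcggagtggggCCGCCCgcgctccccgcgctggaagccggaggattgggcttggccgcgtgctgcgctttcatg
Kcnip2: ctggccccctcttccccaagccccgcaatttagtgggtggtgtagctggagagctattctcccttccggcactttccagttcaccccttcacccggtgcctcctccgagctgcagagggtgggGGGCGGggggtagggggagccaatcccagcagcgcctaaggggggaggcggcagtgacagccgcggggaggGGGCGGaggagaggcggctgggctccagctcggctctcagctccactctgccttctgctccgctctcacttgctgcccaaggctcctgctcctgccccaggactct
Kcnab2: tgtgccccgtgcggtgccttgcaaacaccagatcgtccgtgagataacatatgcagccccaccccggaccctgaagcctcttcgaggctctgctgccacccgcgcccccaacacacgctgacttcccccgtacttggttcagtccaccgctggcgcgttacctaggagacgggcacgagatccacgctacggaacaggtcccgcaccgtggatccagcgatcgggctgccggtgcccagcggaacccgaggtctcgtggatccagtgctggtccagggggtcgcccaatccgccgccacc

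Of the 72 members, 50 had a promoter in the table of 27457 promoters. Their median GC content was 61.7%, beside 52.3% over all promoters, and they held a median of 14.5 CG pairs, beside 7 over all. A GC box stood in 25 of 50 members' promoters (50%) and in 34.9% of all. The cyclic AMP response element TGACGTCA was in 0 of the 50 and in 1.91% of all promoters, the AP-1 motif TGANTCA in 1 (2%) and 7.33%, the E-box CACGTG in 2 (4%) and 6.65%, and the heat shock core GAANNTTC in 1 (2%) and 8.34%. Each motif was read on both strands, and a match or its absence in this window is a description of the letters only.

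In CA1 polysome RNA, 4 members rose and 4 fell. Higher in 8R were 3 inward rectifiers (Kcnj15, Kcnj11 and Kcnj9) and the Kv4 pore subunit Kcnd3. Lower in 8R were the Kv4 auxiliary subunits Kcnip4 and Kcnip3, the M-current subunit Kcnq5 and the GIRK subunit Kcnj3. These 8 of 72 stand beside 8.33% of all genes, of which 4.87% were higher and 3.46% lower, and the median difference was 0.02 over the members and 0.01 over all genes.

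Kcnip4, a calcium-binding Kv4 subunit of which some splice forms slow inactivation, had 391, 591 and 225 in pools 1, 3 and 4 of 8R CA1 polysome RNA, against 703, 679.9 and 617 in NIC. The 8R pools were spread over a wide range, with pool 3 close to NIC and pool 4 far below it. The difference was -0.8 (SE 0.24, 1.75-fold lower, adjusted p = 0.0297). Kcnip3, a further Kv4 subunit that is also known as a calcium-dependent transcriptional repressor, had 268, 339.8 and 309.6 in 8R, against 495, 394 and 416 in NIC, a difference of -0.49 (SE 0.11, adjusted p = 0.00626). In total RNA of CA1, Kcnip4 averaged 396 ± 85 in 8R and 408 ± 12.2 in NIC (SD, n = 4 and 3), a difference of -0.06 (SE 0.22, adjusted p = 0.869).

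Kcnq5, a subunit of the slow M current that muscarinic receptors close, had 129, 159 and 138 in 8R CA1 polysome RNA, against 202, 232 and 193 in NIC. Each 8R pool lay below each NIC pool, with a difference of -0.51 (SE 0.13, 1.42-fold lower, adjusted p = 0.0161). Kcnj3, the GIRK subunit that most neuronal GIRK channels contain, had 175, 274 and 216 in 8R, against 386, 297 and 299 in NIC. Its difference was -0.54 (SE 0.15, 1.46-fold lower, adjusted p = 0.0212). The GIRK subunit genes differed in direction in CA1 polysome RNA, Kcnj3 lower and Kcnj9 higher in 8R. The remaining neuronal one, Kcnj6, had means of 279.8 ± 56.1 in 8R and 299 ± 27.2 in NIC (SD, n = 3 each) and was not called.

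Kcnd3, a Kv4 pore subunit known from hippocampal interneurons and CA3, had 77.3, 60.9 and 91 in 8R CA1 polysome RNA, against 53.1, 43.3 and 44.7 in NIC. The difference was 0.54 (SE 0.15, 1.46-fold higher, adjusted p = 0.0196). Kcnj11, the pore of the ATP-sensitive channel of neurons, had 41.5, 42.3 and 48.8 in 8R, against 37.2, 24.6 and 19 in NIC. All 8R pools were above all NIC pools, and the difference was 0.51 (SE 0.13, adjusted p = 0.0134). Kcnj15, a rectifier of low intensity here, had 30.6, 40.8 and 49.6 in 8R, against 21.5, 26.4 and 14.5 in NIC. The difference was 0.61 (SE 0.17, adjusted p = 0.0193). Its mean on the log2 scale was 5.13 to 5.27 in the NIC groups and 5.43 to 5.8 in the 8R groups. The threshold for members, 5.39, lay between these ranges. Its place among the members, and in the count of genes that rose, thus depended on the 8R values. Pool 4 was the highest 8R pool for all 4 genes that rose.

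**Figure D3:**
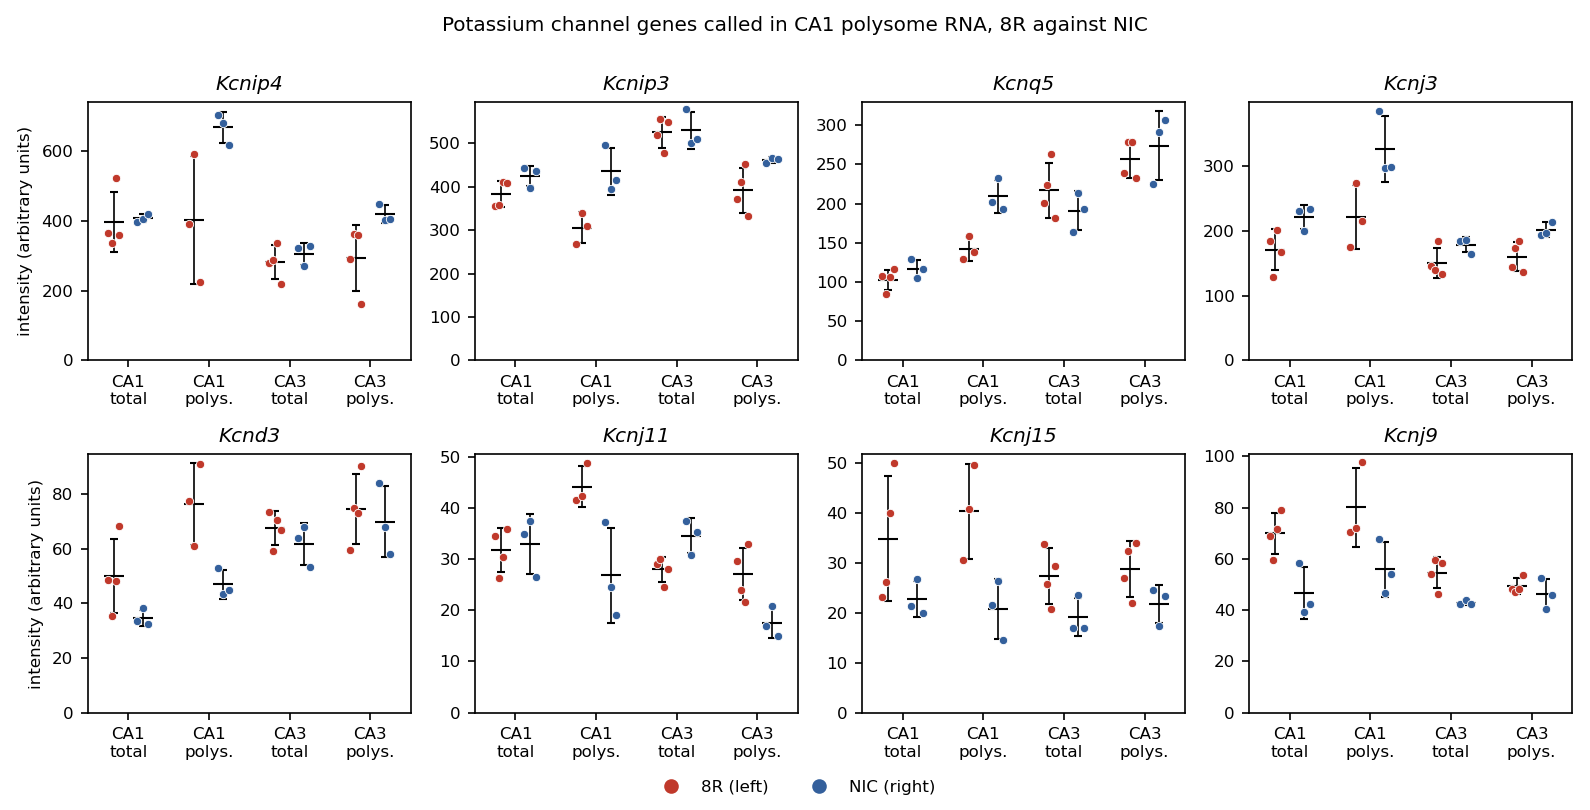
Points are the intensities of single arrays (8R red, left, and NIC blue, right, of each pair) for the 8 genes called in CA1 polysome RNA, in the 4 combinations of region and RNA fraction, with bars at the mean and its SD. Kcnip4 and Kcnj3 show the wide spread of the 3 pools of 8R CA1 polysome RNA, from 225 to 591 and from 175 to 274.

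The count in CA1 polysome RNA depended on single arrays. It was 1 without the polysome array of 8R pool 4, 4 without 8R pool 1 and 16 without 8R pool 3. It was 5 without NIC pool 1 and 3 without NIC pool 2 or NIC pool 3. The share of all genes under these settings is not given here, so the swing is no result particular to these genes. Kcnip4 without 8R pool 4 had a difference of -0.46 (adjusted p = 0.285). After quantile normalization 9 members were called, 3 higher and 6 lower, beside 10.2% of all genes in either direction. In 8R CA1 polysome RNA the CA1 pyramidal markers summed to 1219, 1995 and 1244 in pools 1, 3 and 4, against 1547, 1909 and 1809 in NIC, and the neuron markers to 7427 to 8236 in 8R and 9001 to 9513 in NIC. Of the tested markers 1 of 5 CA1 pyramidal and 3 of 5 neuron markers were called lower and 3 of 7 microglia markers higher, and their part was not tested.

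Whether polysome RNA changed differently from total RNA was tested as the difference of the 2 changes. In CA1 none of the 72 members was called, beside 3.82% of all genes, and 5 members had an unadjusted p under 0.05, beside 23% of all genes. In CA3 none was called either, beside 0.165% of all genes, and 12 had an unadjusted p under 0.05, beside 20.6% of all genes. Total and polysome RNA of 1 number came from the same supernatant, and with the number as a replicate block 3 members were called in CA1, beside 14.1% of all genes, and 6 in CA3, beside 10.7%. The block set 1 correlation for both conditions. In NIC, same-numbered fractions of a region deviated together little (r -0.04 to 0.22), beside -0.15 to 0.1 for unlike numbers. In CA1 these were Kcnj11 (0.53, SE 0.15, adjusted p = 0.0213) and Kcnj14, a subunit of the classical inward rectifiers (0.39, SE 0.13, adjusted p = 0.0428), whose polysome RNA changed upward relative to total RNA, and Kcnip4 (-0.73, SE 0.24, adjusted p = 0.0362). In CA3 they were Kcnn4, Kcnj11, Kcnj5, Kcnt1 and Kcng4, with differences of 0.48 to 0.56, and Kcnv1 at -0.58, with adjusted p of 0.0157 to 0.0384. Kcnj11 was called with the block in both regions. In CA3 it had 29.6, 24, 21.7 and 33 in 8R polysome RNA, against 17, 20.9 and 15 in NIC polysome RNA, while total RNA had 29.1, 30.1, 24.6 and 28 in 8R, against 37.5, 30.9 and 35.4 in NIC. Its 8R arrays thus lay above NIC in polysome RNA and below NIC in total RNA, with no overlap in either. Without the total RNA array of 8R CA3 pool 4, 3 members were called in CA3 with no block.

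In CA3 the calls were few. In total RNA 2 of 72 members were called, both higher, beside 15.5% of all genes called and 14.2% called higher. Kcnk1, a weakly rectifying two-pore-domain channel, had 115, 130, 136 and 116 in 8R CA3 total RNA, against 113, 84.3 and 87.5 in NIC, a difference of 0.35 (SE 0.11, adjusted p = 0.0321). Kcna6, a Kv1 subunit, had 83.6, 78.1, 85.7 and 81.1 in 8R, against 69.7, 54.8 and 67 in NIC, a difference of 0.3 (SE 0.1, adjusted p = 0.0353). In both genes the groups were apart, narrowly so in Kcnk1.

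Neither call held after quantile normalization. There 0 members were higher and 3 were lower (Kcnip2 at -0.37, Kcnj3 at -0.39 and Kcnh3 at -0.55), beside 12.7% of all genes in either direction. As deposited, these 3 genes had differences of -0.27, -0.24 and -0.38 in CA3 total RNA. No member was called without NIC pool 2, NIC pool 3 or 8R pool 3 of CA3 total RNA, 1 was without 8R pool 1 or pool 2, and 4 were without 8R pool 4. Of the markers tested in CA3 total RNA, 3 of 9 astrocyte, 3 of 9 oligodendrocyte and 2 of 7 microglia markers were higher in 8R, and their part was not tested. The 9 oligodendrocyte markers summed to 2419 to 2718 in 8R CA3 total RNA and 1926 to 2291 in NIC.

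In CA3 polysome RNA 3 of 72 members were called, beside 2.66% of all genes, of which 2.38% were higher and 0.275% lower. Kcnf1, an electrically silent Kv2 modifier, had 72.1, 83.5, 72.5 and 82.5 in 8R CA3 polysome RNA, against 45.2, 49.9 and 50.2 in NIC. The groups were far apart, with a difference of 0.54 (SE 0.13, 1.45-fold higher, adjusted p = 0.0266). Kcnh8, a relative of Kcnh3, had 30.4, 32.5, 41.3 and 38.4 in 8R, against 25.4, 20.4 and 20.9 in NIC, a difference of 0.43 (SE 0.11, adjusted p = 0.0337). Kcnv1, another silent subunit, had 34.7, 34.4, 35.1 and 27.7 in 8R, against 49.7, 49.3 and 70.3 in NIC. It was lower in every 8R pool, with a difference of -0.56 (SE 0.11, 1.47-fold lower, adjusted p = 0.00709). Of the markers tested in CA3 polysome RNA, 2 of 7 microglia markers (C1qb at 0.96 and C1qc at 0.49), 1 of 9 astrocyte markers (Gfap at 0.71) and 1 of 9 oligodendrocyte markers (Mobp at 0.58) were higher in 8R. The 9 microglia markers measured summed to 428 to 552 in 8R and 352 to 356 in NIC, and the part of these shifts in the result was not tested.

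The lowest difference in CA3 polysome RNA was that of Kcna5, which had 73.1, 7.83, 38.2 and 56.2 in 8R, against 74.8, 72 and 65.8 in NIC. One 8R pool was very low and another lay in the range of NIC, and the difference of -0.69 (SE 0.24) did not pass the test (adjusted p = 0.114). After quantile normalization Kcnv1 alone of the 3 was called, beside 1.37% of all genes. No member was called without NIC pool 3 of CA3 polysome RNA, where Kcnv1 had an adjusted p of 0.102, and 1 was without NIC pool 1, NIC pool 2 or 8R pool 4.

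The test of whether the change differed between the regions gave no call. In total RNA 0 of 72 members were called for the CA1 change minus the CA3 change, beside 0.0236% of all genes, and 3 had an unadjusted p under 0.05, beside 5.21% of all genes. In polysome RNA 0 were called in limma, beside 0.0157%, and 8 had an unadjusted p under 0.05, beside 5.56% of all genes. The member with the lowest unadjusted p was Kcng2 in both fractions, with differences of -0.48 (SE 0.15, adjusted p = 0.729) in polysome RNA and -0.4 (SE 0.15, adjusted p = 0.843) in total RNA. Calls in CA1 that were missing in CA3 are thus not shown to differ between the regions.

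The NIC arrays gave the resting difference between the regions. In total RNA 8 of 72 members differed between CA1 and CA3, beside 3.47% of all genes, with 4 higher in CA1 (2.41% of all genes) and 4 lower (1.06%). Higher in CA1 were Kcnh7, Kcnd2, Kcnj6 and Kcnq3, and lower were Kcnf1, Kcnq5, Kcnd3 and Kcnn3. The median difference was 0.06 over the members and 0 over all genes.

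Kcnh7, a channel of the ether-a-go-go-related group, had 120.1, 133 and 139 in NIC CA1 total RNA, against 45.3, 43.2 and 36.2 in NIC CA3. This was the widest gap among the members, a difference of 1.35 (SE 0.17, 2.55-fold higher, adjusted p = 3.66e-06). Kcnd2, the main pore of the dendritic A-type current of CA1 pyramidal cells, had 267, 274 and 287 in CA1, against 149.5, 148 and 162 in CA3. The groups were far apart relative to their spread, with a difference of 0.79 (SE 0.16, 1.73-fold higher, adjusted p = 0.00251). Its family member Kcnd3 went the other way, with 33.4, 38.1 and 32.6 in CA1, against 63.8, 68 and 53.4 in CA3, and a difference of -0.61 (SE 0.15, adjusted p = 0.0131).

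The M-current subunits split in the same manner. Kcnq3 had 225, 205 and 234 in NIC CA1 total RNA, against 120.2, 146 and 138 in NIC CA3 (0.66, SE 0.13, adjusted p = 0.00211). Kcnq5 had 129, 105 and 117 in CA1, against 164, 214 and 193 in CA3 (-0.63, SE 0.13, adjusted p = 0.00417). Neither pair of groups overlapped. The GIRK subunit Kcnj6 had 228, 251 and 259 in CA1, against 124, 164 and 137 in CA3 (0.74, SE 0.16, adjusted p = 0.0047). The silent subunit Kcnf1 had 23.6, 16.1 and 20.8 in CA1, against 50.7, 44.4 and 41.6 in CA3 (-0.77, SE 0.14, adjusted p = 0.00114). Its mean on the log2 scale was 5.17 to 5.64 in the CA1 groups and 5.94 to 6.55 in the CA3 groups. The threshold for members, 5.39, lay within the CA1 range. Its place among the members, and among the genes lower in CA1 in both fractions, thus leaned on its CA3 values. Kcnn3, a small-conductance calcium-activated channel, averaged 53.9 ± 9.89 in CA1 and 76.6 ± 6.68 in CA3 (SD, n = 3 each), with a difference of -0.41 (SE 0.1, adjusted p = 0.0146).

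**Figure D4:**
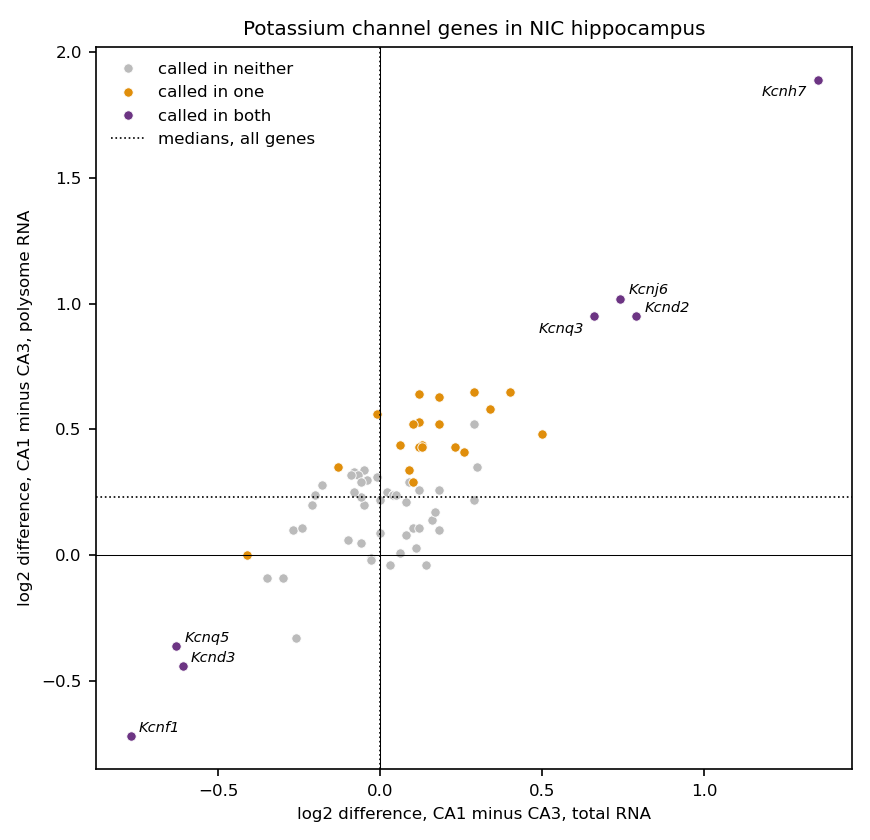
Each point is 1 of the 72 potassium channel genes in NIC, placed by its log2 difference CA1 minus CA3 in total RNA (horizontal) and in polysome RNA (vertical), with dotted lines at the median of all genes tested. The 7 genes called in both fractions are named, 4 of them above 0 on both axes and 3 (Kcnf1, Kcnd3 and Kcnq5) below 0 on both, and the median of all genes on the vertical axis is 0.23.

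In NIC polysome RNA the arrays of CA1 were brighter than those of CA3 over all genes, with a median difference of 0.23, so that the members, with a median of 0.26, must be read against that shift. As deposited, 26 of 72 members were called, beside 28.4% of all genes, with 23 higher (27.7% of all genes) and 3 lower (0.731%). After quantile normalization, which brings the median of all genes to 0, 9 were called, 5 higher and 4 lower, beside 4.68% of all genes. Higher in CA1 on that scale were Kcnh7 (1.56), Kcnd2 (0.77), Kcnj6 (0.77), Kcnq3 (0.68) and Kcnh2 (0.4), and lower were Kcnf1 (-0.93), Kcnd3 (-0.65), Kcnq5 (-0.58) and Kcnk9 (-0.54). Of these 9, 8 were also called as deposited. In total RNA quantile normalization gave 9 calls, 4 higher and 5 lower, beside 5.07% of all genes.

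As deposited, 7 genes were called in both fractions in the same direction: Kcnd2, Kcnd3, Kcnf1, Kcnh7, Kcnj6, Kcnq3 and Kcnq5. In total RNA, 8 of 9 oligodendrocyte markers (median difference 0.69), 3 of 5 CA1 pyramidal markers (1.06) and 1 of 4 dentate granule markers were also called higher in CA1. Of 6 CA3 pyramidal markers 1 was lower. In polysome RNA 3 of 4 dentate granule markers were higher in CA1, and of 6 CA3 pyramidal markers 1 was higher and 1 lower. The part of these markers was not tested. Kcnn3 was lost without NIC CA1 pool 3 (adjusted p = 0.174), NIC CA3 pool 2 (0.0968) or NIC CA3 pool 3 (0.0528), and Kcnd3 without either of NIC CA1 pools 1 and 3 or NIC CA3 pools 1 and 2 (0.0605 to 0.08). In polysome RNA as deposited the count was 15 to 17 without NIC CA1 pool 1, NIC CA1 pool 2, NIC CA3 pool 2 or NIC CA3 pool 3.

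A last comparison set polysome RNA against total RNA within NIC, which bears on how much of each transcript sat in the polysome pellet. In CA1, 20 of 72 members were called as deposited, 18 higher in polysome RNA and 2 lower, beside 44% of all genes, 39.4% higher and 4.62% lower. All genes had a median difference of 0.2 there, and the members one of 0.11. After quantile normalization 14 members were called, 7 higher and 7 lower, beside 34.3% of all genes. In CA3, where the median of all genes was 0 and that of the members -0.08, 20 of 72 were called, 7 higher and 13 lower, beside 38.4% of all genes, 21.5% higher and 16.9% lower. Quantile normalization gave 17 calls there, 9 higher and 8 lower, beside 37.1% of all genes.

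In both regions and on both scales, 6 members were called in the same direction, 4 higher in polysome RNA (Kcnab1, Kcnd2, Kcnk9 and Kcnq5) and 2 lower (Kcnip2 and Kcnmb4). Kcnip2 had 313, 335 and 344 in NIC CA1 polysome RNA, against 569, 543 and 624 in NIC CA1 total RNA, a difference of -0.78 (SE 0.12, adjusted p = 4.51e-06). In CA3 it had 295, 305 and 338 in polysome RNA, against 503, 603 and 538 in total RNA, again a difference of -0.78 (SE 0.12, adjusted p = 1.15e-05). No array of one fraction reached the range of the other.

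Kcnd2 had 499, 543 and 505 in NIC CA1 polysome RNA, against 267, 274 and 287 in NIC CA1 total RNA (0.86, SE 0.16, adjusted p = 5.68e-05), and 256, 256 and 267 against 149.5, 148 and 162 in CA3 (0.71, SE 0.16, adjusted p = 0.000985). Kcnab1, a Kv1 auxiliary subunit that speeds inactivation, had 723, 738 and 764 in NIC CA1 polysome RNA, against 399, 376 and 401 in NIC CA1 total RNA (0.89, SE 0.24, adjusted p = 0.0036). In CA3 its difference was 0.67 (SE 0.24, adjusted p = 0.0307). Kcnmb4, the neuronal auxiliary subunit of the large-conductance calcium-activated channel, had 60.1, 59.6 and 57.2 in NIC CA1 polysome RNA, against 79.4, 84.2 and 80.3 in NIC CA1 total RNA. Its difference was -0.38 (SE 0.11, adjusted p = 0.00741) in CA1 and -0.67 (SE 0.11, adjusted p = 5.62e-05) in CA3. The pore of the same channel, Kcnma1, was higher in polysome RNA as deposited, by 0.59 (SE 0.13, adjusted p = 0.000593) in CA1 and 0.4 (SE 0.13, adjusted p = 0.0176) in CA3, and it was called in neither region after quantile normalization.

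Kcnq5, the M-current subunit, was higher in polysome RNA by 0.76 (SE 0.13, adjusted p = 3.84e-05) in CA1 and 0.49 (SE 0.13, adjusted p = 0.00564) in CA3. Kcnk9, an acid-sensitive leak channel, was higher by 0.49 (SE 0.13, adjusted p = 0.00289) in CA1 and 0.56 (SE 0.13, adjusted p = 0.00145) in CA3. Kcnip4 (0.69, adjusted p = 0.0181) and the Kv1 auxiliary subunit Kcnab3 (0.55, adjusted p = 0.00184) were called in CA1 as deposited. The Kcnip4 call was lost after quantile normalization (0.44, adjusted p = 0.103), while Kcnab3 kept its call in CA1 (0.44, adjusted p = 0.0148). In CA3 as deposited their differences were 0.44 and 0.21 and were not called, but Kcnip4 was called there with the replicate block (adjusted p = 0.0347) and Kcnab3 after quantile normalization (0.35, adjusted p = 0.0491). Lower in CA3 polysome RNA were Kcnj11 (-0.59, adjusted p = 0.000833), Kcnh8 (-0.52, adjusted p = 0.00115), the leak-family channel Kcnk6 (-0.51, adjusted p = 0.00727) and the GIRK subunit Kcnj5 (-0.47, adjusted p = 0.0076). In CA1 these 4 had differences of -0.21, -0.04, -0.16 and -0.09, and whether the regions differ was not tested. Kcnk6 has 2 probe sets, and its CA3 call was lost when they were averaged (-0.22, adjusted p = 0.0921).

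**Figure D5:**
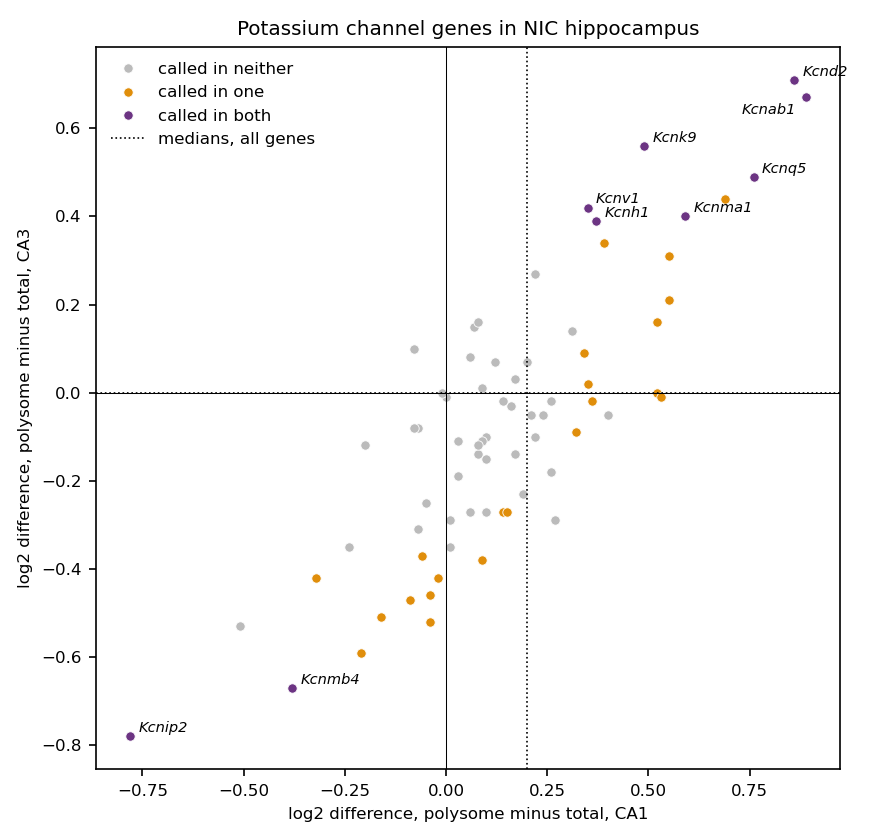
Each point is 1 of the 72 potassium channel genes in NIC, placed by its log2 difference polysome minus total RNA in CA1 (horizontal) and CA3 (vertical), with dotted lines at the median of all genes tested (0.2 in CA1 and 0 in CA3). The 9 genes called in both regions as deposited are named, with Kcnip2 and Kcnmb4 at the lower left and the other 7 at the upper right.

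Genes that work with these channels were described from 3 lists. Of 13 tested partners (subunits and anchoring proteins outside the Kcn symbols), 2 were higher and 2 lower in 8R CA1 total RNA, among them Vapa, an endoplasmic reticulum anchor of Kv2 channels (0.46, adjusted p = 0.00267), and Lgi1, a secreted Kv1 partner (-0.44, adjusted p = 0.0091). These 4 of 13 stand beside 26.3% of all genes called in that comparison. In 8R CA1 polysome RNA Lgi1 alone was called (-0.6, adjusted p = 0.00475), beside 8.33% of all genes. In 8R CA3 total RNA Vapa alone was called (0.38, adjusted p = 0.0198), beside 15.5% of all genes. In NIC total RNA, Dpp6, a Kv4 partner that speeds the A-type current, was higher in CA1 than in CA3 (0.72, SE 0.12, adjusted p = 0.00042). Its relative Dpp10 was lower (-0.54, SE 0.12, adjusted p = 0.00861). No other partner was called there, beside 3.47% of all genes called.

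Of 12 tested receptors that open GIRK or close M channels, 2 were lower in 8R CA1 total RNA and the same 2 in 8R CA1 polysome RNA, beside 6.15% and 3.46% of all genes called lower. The serotonin receptor Htr1a, which opens GIRK channels, had differences of -0.8 (SE 0.18, adjusted p = 0.00115) in total RNA and -0.66 (SE 0.19, adjusted p = 0.0284) in polysome RNA. The muscarinic receptor Chrm1, which closes M channels, had -0.62 (SE 0.15, adjusted p = 0.00192) and -0.5 (SE 0.16, adjusted p = 0.0434). No receptor of the list was called in CA3, beside 15.5% of all genes in total RNA and 2.66% in polysome RNA. None was called for the CA1 change minus the CA3 change in either fraction, so a difference between the regions is not shown. The median difference of the 12 was -0.04 in CA1 total and -0.11 in CA1 polysome RNA. Of 3 tested HCN channels, the cation channels of the resting hyperpolarisation-activated current, Hcn3 was lower in 8R CA1 total RNA (-0.55, SE 0.17, adjusted p = 0.0195), beside 6.15% of all genes called lower.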

How the data were processed

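RNA of 27 pools and fractions was measured on Affymetrix Rat Gene 2.0 arrays in 8 groups. The deposited values are intensity per probe set on a linear scale, summarised with PLIER in Affymetrix Expression Console per the submitters' processing notes, and no source used here states how arrays were scaled to each other. The array annotation lists 1 symbol for 18511 of its 36685 probe sets, several for 575 and none for 17599, and only the first kind was used. The brightest probe set stood for a gene, which left 18166 genes, and of these 12716 at or above the 30th percentile of mean log2(intensity + 16), 5.39, were tested.

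One limma 3.58.1 model (R 4.3.3, moderated with an intensity trend) held a mean for each of the 8 groups, and 12 contrasts were read from it, two-sided. Groups and pool numbers came from the sample descriptions. Nothing beyond the pools of 5 rats says how replicates were separated, so p-values measure the spread between pools. The members and gene lists were chosen with earlier results of these data known. Named were the called members, up to 6 with the largest rise and 6 with the largest fall per comparison, and the members nearest the threshold. Kcna5, the genes called with the replicate block or after quantile normalization, and values of a named gene in groups where it was not called were chosen after their values were seen. Pool numbers were checked for pairing: same-numbered fractions of a region deviated together in 8R (r 0.28 to 0.77) and little in NIC (r -0.04 to 0.22), and the series' design states that both fractions share a supernatant. The random replicate block had a correlation of 0.268. Other settings were the pseudocount, the filter, quantile normalization, the probe set rule, array weights, fits of the compared groups alone, replicate blocks, leaving out arrays, and, added after seeing the data, centring each array on its median. The procedure was tested on simulated data with independent noise per array, a spread per gene shared by all groups, and shifts in 8R CA1 total RNA only. That simulation held no correlation between arrays of a pool, so it does not bear on p-values under such correlation. Promoters came from RefSeq (GRCr8), and figures were drawn with matplotlib.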

Additional observations from a re-analysis of the deposited data

Results flagged for a closer look

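Single arrays stood apart in 2 of the 11 groups of 4 arrays examined among the called genes, where chance gives about 1 in 20. Kcnh3 in 8R CA1 total RNA had an intensity of 185 in pool 3, against 98.4 to 108 in the other 8R pools, and the gap was 0.85 of the range of the group. Kcnv1 in 8R CA3 polysome RNA had 27.7 in pool 4, against 34.4 to 35.1 in the other 8R pools. Its gap was 0.914 of the range on the same log2 scale.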

How the results depend on the processing

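All values are counts of the 72 potassium channel genes called. The share of all genes called moves with the setting too. With quantile normalization it went from 26.3% to 29.6% in 8R CA1 total RNA and from 2.66% to 1.37% in 8R CA3 polysome RNA. In NIC polysome RNA, CA1 against CA3, it went from 28.4% to 4.68%. For array weights, the fixed block and left-out arrays that share is not given here, so those counts are no result particular to these genes. No call of a named gene changed sign under any setting, and the signs of called members that were not among the up to 6 named per direction were not followed. Settings that move a count by over 1.5 times follow, and the cause was not tested. In 8R CA1 total RNA (6 as deposited) the count was 15 after quantile normalization, 14 with each array centred on its median (a setting chosen after seeing the data), 11 with array weights, 13 with a fixed replicate block, 10 without the 4 arrays of 8R pool 4, and 5 to 8 without single arrays. In 8R CA1 polysome RNA (8) it was 2 in a fit of the compared groups alone, 20 with array weights, and 1 to 16 without single arrays. In 8R CA3 total RNA (2) it was 1 without a filter, 0 in the fit of the compared groups alone, 11 with array weights, 9 with the fixed replicate block, 7 without 8R pool 4, 1 after centring, and 0 to 4 without single arrays. In 8R CA3 polysome RNA (3) it was 1 after quantile normalization and after centring, 11 with array weights, 6 with the fixed replicate block, and 0 to 4 without single arrays.

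For the polysome change minus the total change (0 in both regions), CA1 had 3 with array weights, 3 with the random and 3 with the fixed replicate block, and 0 to 1 without single arrays. CA3 had 8 with array weights, 6 with the random and 7 with the fixed replicate block, 3 without 8R pool 4, and 0 to 3 without single arrays. The CA1 change minus the CA3 change had 0 under every setting tried. In NIC, CA1 against CA3 in total RNA (8) had 14 in the fit of the compared groups alone, 13 with array weights, and 6 to 8 without single arrays. In polysome RNA (26) it had 9 after quantile normalization and after centring, 40 with array weights, and 15 to 24 without single arrays. NIC polysome against total RNA (20 in each region) had 32 in CA3 with array weights, and 14 to 18 in CA1 and 14 to 20 in CA3 without single arrays. The random replicate block moved no other count by over 1.5 times and lost no call. The values hold no background measure, and the 3 or 4 pools per group limit the precision.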
